A study of Oryza sativa Japonica Group with 12 samples.

Results

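Phenylalanine ammonia-lyase (PAL) removes ammonia from phenylalanine and gives cinnamate, the entry step of the phenylpropanoid pathway. Plants carry PAL as a family of similar genes, and the pathway feeds lignin of the cell wall, soluble phenolics and flavonoids. In leaves it is known for its response to infection, wounding and light, and the ammonia it releases is taken back into amino acids. The 9 locus IDs listed as the rice PAL family were looked up in a table of 38978 annotated rows, and 8 of them were rows of it. Os11g0708900 was not among the rows and is not analysed here. The files give only locus IDs, so the family membership rests on that list, and no RefSeq entry used here matched a member. Of the 8 rows, 7 had a count in any library and 6 were abundant enough to test, among 20217 tested rows in all.

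The RNA came from leaves of field-grown rice of the cultivar Nipponbare, a japonica variety, sampled at 10 a.m., in 12 libraries, 4 for each of 3 groups. WT was the cultivar without a transgene, and Line7 and Line8 were homozygous transgenic lines 7 and 8 with an artificial microRNA, under the 35S promoter, which is active in most plant tissues, against YGL1, the gene for chlorophyll synthase. Each line stands for a single transgenic line, and no group carried a control construct. The comparisons ask whether leaves with the microRNA, made to have less chlorophyll, differ from WT in PAL transcripts and whether the lines differ from each other. Whether replicates came from separate plants is not in the labels. The p-values therefore reflect only how far these samples spread, which may be technical. In such bulk samples, fewer cells of a type and less RNA per cell cannot be told apart.

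Library totals ran from 14746933 to 19822636 counts. Os05g0349700, the ID taken as that of the microRNA's target, averaged 54.7 ± 11.2 CPM (counts scaled to a common library total, SD, n = 4) across the WT libraries. The averages were 39.4 ± 19.4 CPM for Line7 and 26.8 ± 4.54 CPM for Line8. It was lower than WT in Line8 (edgeR, log2 fold change -1.03, SE 0.278, adjusted p = 0.0172) and did not pass the threshold of 0.05 in Line7 (adjusted p = 0.291). The Line8 call was lost without WT replicate 4 (adjusted p = 0.0532) and the Line7 change passed without Line7 replicate 2 (adjusted p = 0.00592). That library, Line7 replicate 2, held 68.1 CPM, within the WT range, and across genes its mean Spearman correlation with the WT libraries was 0.977, against 0.925 with the rest of Line7. Of the markers written down as locus IDs, all 6 of leaf mesophyll had counts in every library and summed to 20730 to 55205 CPM, whereas 2 of 3 for secondary-wall cells and 3 of 4 for roots had no count in any library. The files do not pair these IDs with names.

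Among the 6 tested PAL rows, 1 fell in Line8, where edgeR called 27.3% of all tested rows and 11.8% as lower. None passed the test in Line7, where 6.97% of all rows were called. In the chromosome 2 rows and Os05g0427400 the highest WT library exceeded the lowest by 5.24- to 9.38-fold, and the same libraries were high in all of these rows. The chromosome 4 pair varied less in WT, by 1.31- and 2.24-fold, and its rows did not share a highest WT library. Os04g0518100 was highest in WT replicate 3, at 53.8 CPM, with replicate 4 close at 53.0 CPM. Os04g0518400 was highest in WT replicate 2, at 135 CPM. The locus IDs carry the chromosome number and rise along it. They place 4 members in a run on chromosome 2 from Os02g0626100 to Os02g0627100, and a pair on chromosome 4, Os04g0518100 and Os04g0518400. The remaining IDs lie singly on chromosomes 5, 11 and 12. The counting method is not given in the sources used here, so reads of similar copies may have been split between the rows of a run. Without gene lengths for these IDs, levels are compared between libraries and not between members.

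**Figure D1:**
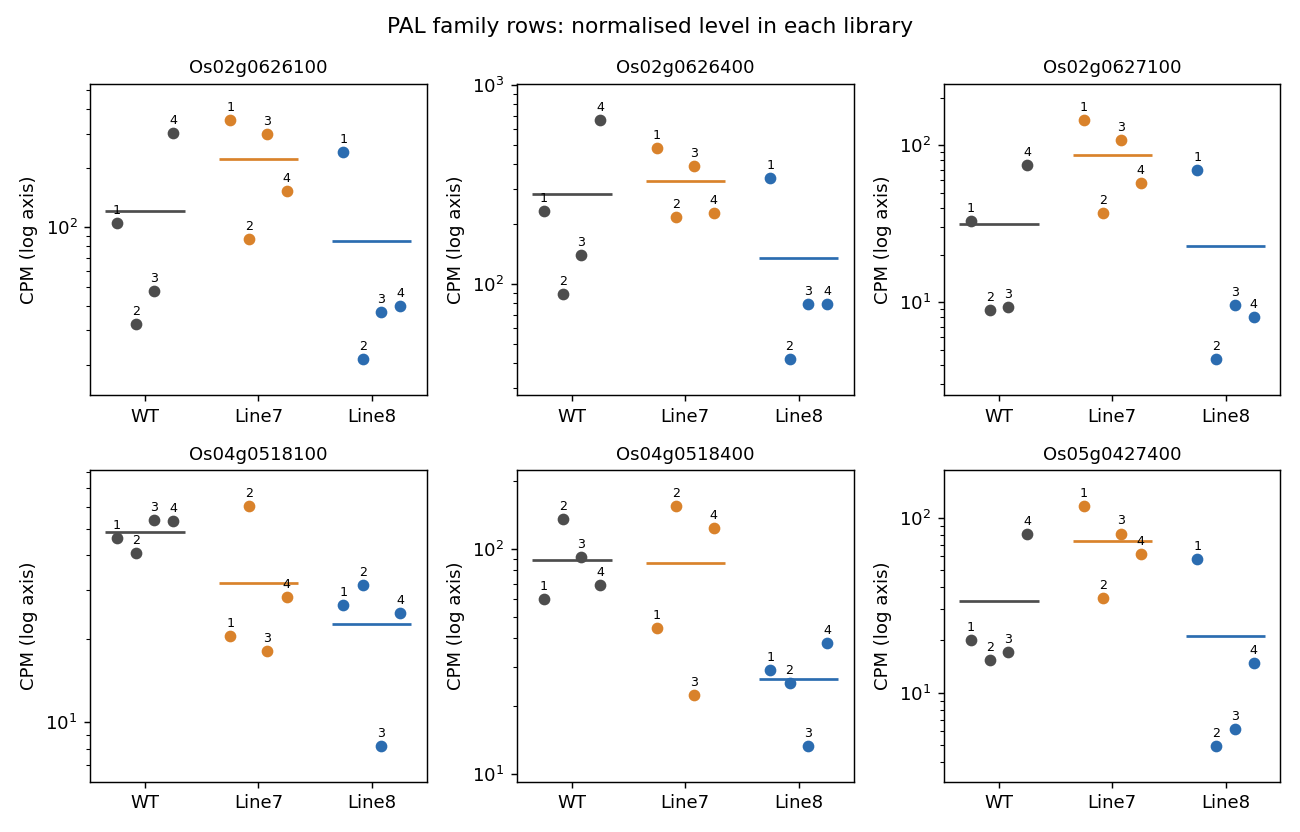
Normalised level of the 6 tested PAL rows in each library (y axis, CPM on a log axis), by group; points are libraries with their replicate number and lines are group means. WT replicate 4 and Line8 replicate 1 stand at the top of their groups in the chromosome 2 rows and in Os05g0427400, and not in the chromosome 4 rows.

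In the chromosome 2 run, Os02g0626400 held 231, 88.5, 139 and 669 CPM in WT replicates 1 to 4. It held 479, 216, 389 and 227 CPM in Line7 and 340, 41.9, 79.4 and 79.1 CPM in Line8, in the same order. WT replicate 4 was thus the highest of all 12 libraries, and Line8 replicate 1 stood above the other 3 of its group and inside the range of the other groups. This row alone had 27.6 to 53.6% of the PAL counts of a library. Neither line differed from WT past the threshold (edgeR log2 fold change -1.06, SE 0.68, adjusted p = 0.261 for Line8, and 0.22, SE 0.673, adjusted p = 0.866 for Line7). The Line8 change was -2.03 without Line8 replicate 1 (adjusted p = 0.0366) and -0.18 without WT replicate 4 (adjusted p = 0.858). The fit without Line8 replicate 1 called 22.4% of all rows in Line8, 8.12% being lower. The Line7 change was 1.10 without WT replicate 4 (adjusted p = 0.299).

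Os02g0626100 held 106, 32.1, 47.7 and 301 CPM in the WT libraries, 353, 87.0, 299 and 154 CPM in Line7 and 241, 21.4, 37.3 and 40.0 CPM in Line8. Only Line7 replicate 1 lay above every WT library, and only Line8 replicate 2 below every WT library. Its log2 fold change was 0.88 in Line7 (95% interval -0.87 to 2.62) and -0.52 in Line8 (95% interval -2.26 to 1.22). Os02g0627100 held 32.7, 8.89, 9.27 and 74.4 CPM in WT, 146, 36.9, 108 and 57.4 CPM in Line7 and 69.4, 4.35, 9.60 and 8.07 CPM in Line8. All Line7 libraries were above WT replicates 1 to 3 and 2 of them above WT replicate 4. For Line7 its log2 fold change reached 1.47 (SE 0.867) with an edgeR adjusted p of 0.294, and for Line8 it was -0.45 (SE 0.857, adjusted p = 0.72). Without WT replicate 4 the sign in Line8 turned for both rows, to 0.46 for Os02g0626100 and 0.43 for Os02g0627100. In that fit the Line7 changes were 1.85 and 2.36 (edgeR unadjusted p = 0.0419 and 0.0251, adjusted p = 0.185 and 0.145). For Line7, 5054 of its 20515 rows had an unadjusted p under 0.05. Without Line8 replicate 1 the Line8 changes were -1.84 and -2.04 (adjusted p = 0.086 and 0.0679).

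The remaining row of the run, Os02g0626600, had no count in any library. A count of 0 allows up to 3 counts, or 0.163 to 0.207 CPM depending on the library, for counting error only, so lower levels were not detectable at this depth. The rows that lie between the run's members were also nearly empty. Os02g0626200 had 0 to 11 counts per library and Os02g0626532 had 0 in all.

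The balance between members of the run separated some groups whose levels overlapped. Ratios of counts in the same library do not depend on the scaling of libraries. Os02g0626400 had 2.19 to 2.92 counts per count of Os02g0626100 in WT. In Line8 the ratio was 1.41 to 2.13, below every WT library, and in Line7 replicates 1, 3 and 4 it was 1.36, 1.30 and 1.48. Line7 replicate 2, at 2.49, lay in the WT range. Os02g0626100 over Os02g0627100 gave a different order, with 3.22 to 5.14 in WT, 3.46 to 4.96 in Line8 and 2.36 to 2.77 in Line7. Here all 4 Line7 libraries lay below all WT and Line8 libraries, replicate 2 included. These are among 4 ratios that were computed. Os04g0518400 over Os04g0518100 overlapped between groups, at 1.30 to 3.29 in WT, 1.24 to 4.34 in Line7 and 0.81 to 1.63 in Line8. Os02g0626400 over Os04g0518400 also overlapped, at 0.658 to 9.65 in WT, 1.41 to 17.3 in Line7 and 1.66 to 11.7 in Line8. How often other pairs of rows separate the groups was not computed. The ratios are given as a description with no test.

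Os05g0427400, the single member on chromosome 5, was high in the same libraries as the chromosome 2 run. It held 20.0, 15.3, 17.1 and 80.3 CPM in WT, 116, 34.8, 81.1 and 62.1 CPM in Line7 and 58.3, 4.97, 6.16 and 14.8 CPM in Line8. WT replicate 4 and Line8 replicate 1 were again far above the rest of their groups, and Line8 replicates 2 to 4 lay below every WT library. The fitted changes, 1.15 for Line7 (SE 0.747, edgeR adjusted p = 0.344) and -0.65 for Line8 (SE 0.746, adjusted p = 0.539) on the log2 scale, did not pass the threshold. Without WT replicate 4 the Line8 value turned to 0.27 and the Line7 value was 2.07 (edgeR unadjusted p = 0.0166, adjusted p = 0.123). For Line7, 5054 of the 20515 rows in that fit had an unadjusted p under 0.05. Without Line8 replicate 1 the Line8 value was -1.89 (adjusted p = 0.0577).

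Every Line8 library was below every WT library in both rows of the chromosome 4 pair, and 1 of them passed the test. Os04g0518400 held 60.0, 135, 91.9 and 69.3 CPM in WT and 28.9, 25.3, 13.4 and 38.3 CPM in Line8. It fell 3.36-fold (log2 fold change -1.75, SE 0.52, edgeR adjusted p = 0.0258). In Line7 it held 44.5, 154, 22.5 and 123 CPM, spread to both sides of the WT range (log2 fold change -0.05, SE 0.503, adjusted p = 0.961). The call in Line8 was lost without WT replicate 2 or 3 (adjusted p = 0.0748 and 0.0587) and without Line8 replicate 1, 2 or 3 (0.0548, 0.0575 and 0.0634), with log2 fold changes of -1.98 to -1.46 over all 12 fits that left out 1 library. The difference between the lines, -1.70 (SE 0.519), had an unadjusted p of 0.00609 and an adjusted p of 0.216 by edgeR. It passed the threshold by DESeq2 (adjusted p = 0.047). Between the lines edgeR called 0.0247% of all rows and DESeq2 called 2.34%.

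Os04g0518100 was the steadiest member in WT, at 46.1, 40.9, 53.8 and 53.0 CPM. It held 26.5, 31.3, 8.23 and 24.9 CPM in Line8. Line7 replicates 1, 3 and 4 held 20.5, 18.1 and 28.3 CPM, below the WT range, and Line7 replicate 2, at 60.1 CPM, was above it. With all libraries the log2 fold change of -1.09 for Line8 (SE 0.407, edgeR adjusted p = 0.0623) and that of -0.61 for Line7 (SE 0.403, adjusted p = 0.353) missed the threshold. Without Line7 replicate 2 both passed by edgeR, at -1.09 in Line8 (adjusted p = 0.0204) and -1.12 in Line7 (adjusted p = 0.0347). That fit called 31.7% of all rows in Line8, 14.3% being lower, and 25.2% in Line7, 10.2% being lower. In Line8 Os04g0518100 also passed under 6 other settings (adjusted p from 0.0355 to 0.0479), among them DESeq2, limma-voom and upper-quartile scaling. Over the fits that left out 1 library, its Line8 value ran from -1.28 to -0.77. The latter was without Line8 replicate 3 (edgeR adjusted p = 0.115). Of all tested rows, 14.9% had every Line8 library below every WT library, so such a separation is common in this comparison.

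Between the members of the pair lies Os04g0518200, which is not a member of the list. Its mean level was 127 ± 19.3 CPM (SD, n = 4) over the WT libraries, 76.0 ± 22.2 CPM over those of Line7 and 92.5 ± 16.6 CPM over those of Line8. For the mean of both lines it fell (log2 fold change -0.60, SE 0.189, edgeR adjusted p = 0.0358) and passed in neither line alone (adjusted p = 0.0614 in Line7 and 0.14 in Line8). Os12g0520200, the member on chromosome 12, had 2 counts in Line8 replicate 2, 5 in Line8 replicate 4 and none in the other 10 libraries, too few to test.

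**Figure D2:**
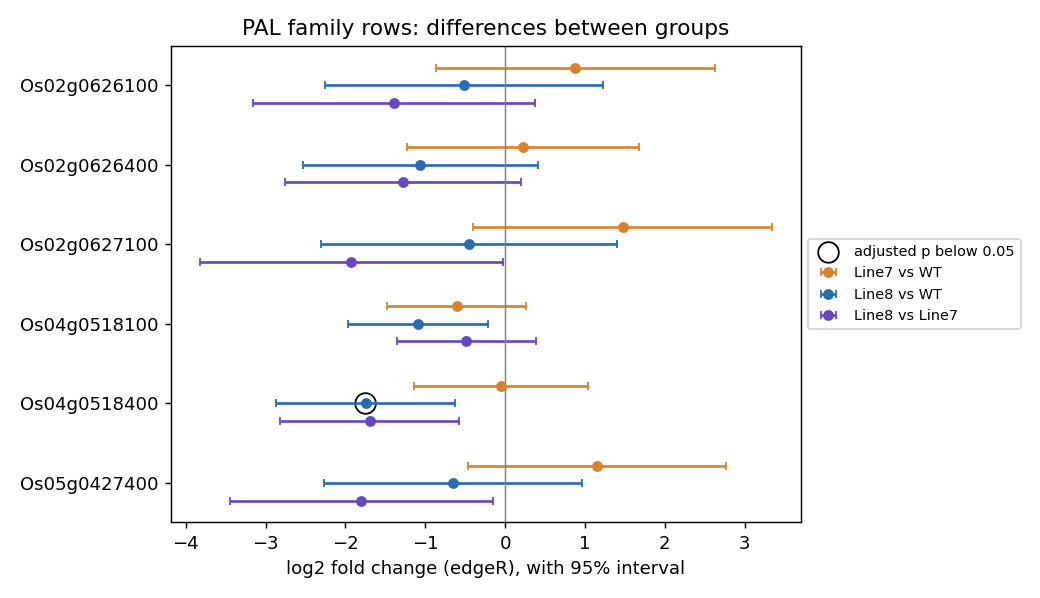
Log2 fold change of the 6 tested PAL rows (x axis) with its 95% interval from edgeR, for Line7 against WT, Line8 against WT and Line8 against Line7; the ring marks an adjusted p below 0.05. The ring stands at Os04g0518400 in Line8 against WT, and the intervals of the chromosome 2 rows span several log2 units.

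Over the 6 tested rows, edgeR called 0 higher and 1 lower in Line8. A share of 1 in 6 is near the background of 11.8% lower and 27.3% in either direction. An unadjusted p under 0.05 was reached by 2 of the 6, against 40.7% of all rows. The median log2 fold change of the 6 was -0.86 against -0.07 over all tested rows, and all 6 values were negative. Several of these rows varied together, so the signs are not 6 separate observations. The share of negative values over all rows was not computed. Without WT replicate 4 the median was 0.045 with 3 of the 6 positive, and without Line8 replicate 1 it was -1.86 with all 6 negative. None of the 6 was called in Line7 by edgeR, DESeq2 or limma-voom, and 0 had an unadjusted p under 0.05 in edgeR, which called 6.97% of all rows and had 26.9% at that unadjusted level. The median there was 0.55 against -0.01, with 4 of 6 values positive, and without WT replicate 4 it was 1.48 with the same count positive. For the mean of both lines all 3 tools called 0, and 1 row had an unadjusted p under 0.05 in edgeR, which called 24.3% of all rows and had 38.2% at that level. Without Line7 replicate 2, both chromosome 4 rows were called lower in that comparison (adjusted p = 0.0082 for Os04g0518100 and 0.0467 for Os04g0518400), in a fit that called 35% of all rows, 16.6% being lower. These comparisons share the WT libraries.

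Between the lines all 6 values were lower in Line8, with a median log2 difference of -1.55 against -0.02 over all rows. Here too the signs are not 6 separate observations. None passed the threshold by edgeR, which called 0.0247% of all rows there, and limma-voom called 0. DESeq2 called 1, Os04g0518400, where it called 2.34% of all rows. An unadjusted p under 0.05 was reached by 3 of 6, namely Os02g0627100, Os04g0518400 and Os05g0427400, against 16.2% of all rows. The 95% intervals ran from -3.83 to -0.02 for Os02g0627100 and from -1.36 to 0.39 for Os04g0518100. Without Line7 replicate 2 the difference turned to 0.028 for Os04g0518100 (adjusted p = 0.979) and the other 5 stayed negative. In that fit the difference for the target ID Os05g0349700 was -0.16, against -0.56 with all libraries. Without Line8 replicate 1 the median of the 6 was -2.52, and the lowest adjusted p among them was 0.0936 by edgeR. Missing the threshold does not show that the lines are alike.

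Summed over its rows, the family averaged 605 ± 434 CPM (SD, n = 4) for WT, 829.1 ± 262 CPM for Line7 and 313 ± 302 CPM for Line8. By library it was 496, 320, 359 and 1247 CPM in WT, 1159, 589, 917 and 652 CPM in Line7 and 764, 129, 154 and 206 CPM in Line8. The group ranges overlapped through WT replicate 4 and Line8 replicate 1. The chromosome 2 rows made up 63.3 ± 19.5% of the PAL counts in WT, 74.0 ± 13.9% in Line7 and 70.3 ± 15.8% in Line8. In WT they reached 83.7% in replicate 4 and were at 40.4% in replicate 2, where the chromosome 4 pair held 54.8%. The pair was at 9.81% in WT replicate 4, 5.60% and 4.43% in Line7 replicates 1 and 3, and 7.26% in Line8 replicate 1. These were the 4 libraries with the highest summed chromosome 2 levels. The pair's own summed level in those libraries was 122, 65.0, 40.6 and 55.4 CPM.

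**Figure D3:**
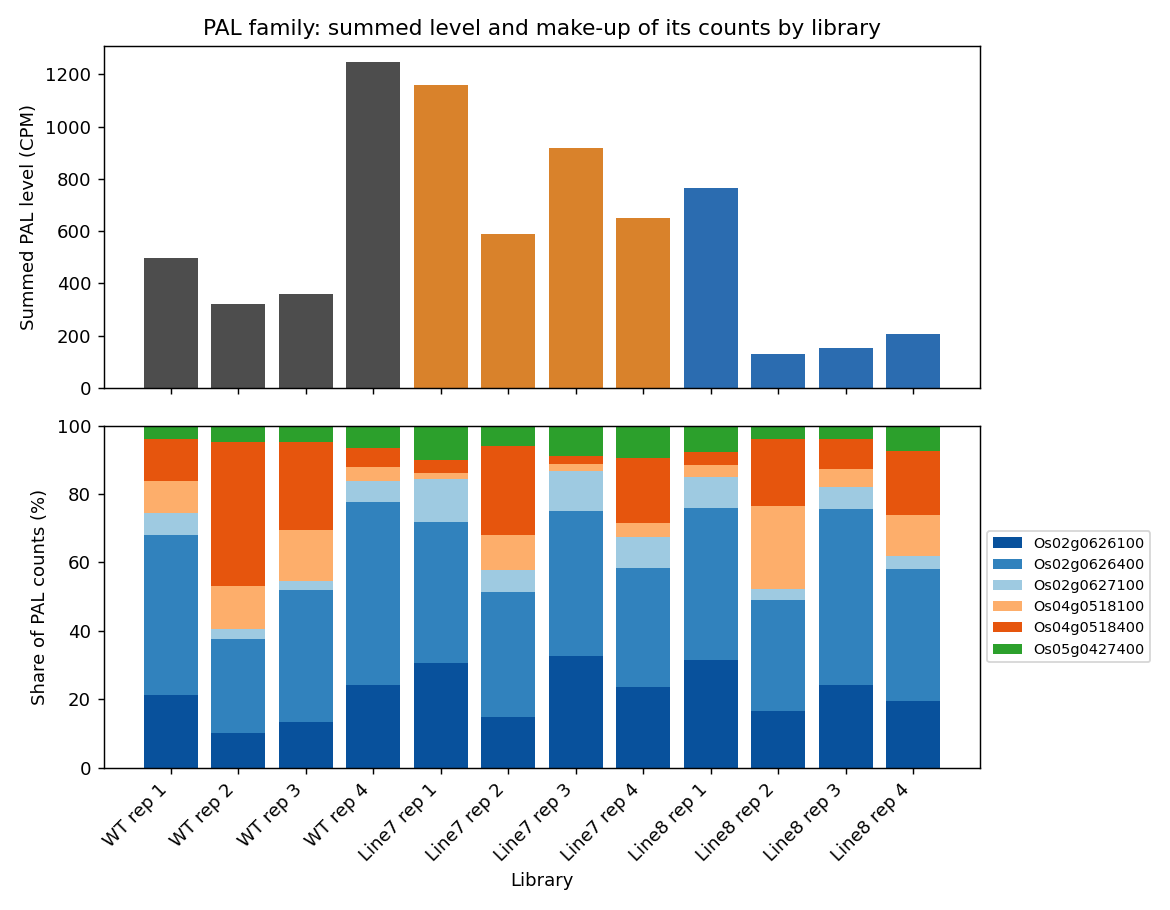
Top, summed level of the PAL rows in each library (CPM); bottom, share of the PAL counts held by each of the 6 tested rows (percent). The sum reaches 1247 CPM in WT replicate 4 and is lowest in Line8 replicate 2, at 129 CPM, and the chromosome 4 rows (orange tones) hold 4.43 to 9.81% of the counts in the 4 libraries with the highest sum.

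How alike the members varied can be measured by the distance between rows. That distance is the root-mean-square difference of their log2 CPM, each centred on its mean over the 12 libraries. It was 0.376 to 0.651 among the 3 chromosome 2 rows and 0.446 to 0.533 between them and Os05g0427400. Within the chromosome 4 pair it was 0.663, above every distance among the other 4 rows. Between the chromosome 4 pair and the other 4 rows it was 1.29 to 1.89. Distances between other pairs of rows were not computed. All rows come from the same 12 libraries, so these distances describe the libraries and carry no test.

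Each library was also set against the median of its own group. This restates the CPM given above, so it is no separate evidence, and rows that varied together are not separate hits. WT replicate 4 was at least 2-fold above the WT median in 4 of the 6 PAL rows, by 1.80 to 2.08 on the log2 scale of CPM + 0.5, and 1.37% of all tested rows were that far above. Line8 replicate 1 was at least 2-fold above in the same 4 rows, by 2.09 to 2.91, against 2.39% of all rows. Both chromosome 4 rows were within 0.22 of the group median in these libraries. Line7 replicate 2 was at least 2-fold below in 3 of the 6 and above in 1, against 8.71% and 3.70% of all rows. WT replicate 2 was that far below in 3 of the 6, against 0.653% of all rows. WT replicate 3, Line7 replicate 3 and Line8 replicates 2 and 3 were below in 1 each. The shares of all rows there were 0.208%, 1.35%, 1.15% and 12.1%. In WT the highest library exceeded the lowest by at least 4-fold in 1.87% of all rows and in 4 of the 6 members.

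Of 21 locus IDs written down as other enzymes of the pathway, from cinnamate hydroxylation to monolignols and chalcone, all were rows and 15 could be tested. The files do not pair them with names. In WT replicate 4, 9 of the 15 were at least 2-fold above the WT median and 0 below, and in Line8 replicate 1 it was 9 above and 1 below. The summed level of the 21 was 865 to 929 CPM in WT replicates 1 to 3 and 1960 CPM in replicate 4. It was 1404 CPM in Line8 replicate 1 and 373 to 504 CPM in the other Line8 libraries. In Line8 against WT, 0 of the 15 rose and 2 fell by edgeR, with a median log2 fold change of -0.52, against 11.8% of all rows called lower. None was called in the other comparisons, namely Line7 against WT, the lines jointly against WT, and Line8 against Line7. There, 0, 2 and 7 had an unadjusted p under 0.05 in edgeR, against 26.9%, 38.2% and 16.2% of all rows. The medians were 0.39, -0.07 and -1.20.

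**Figure D4:**
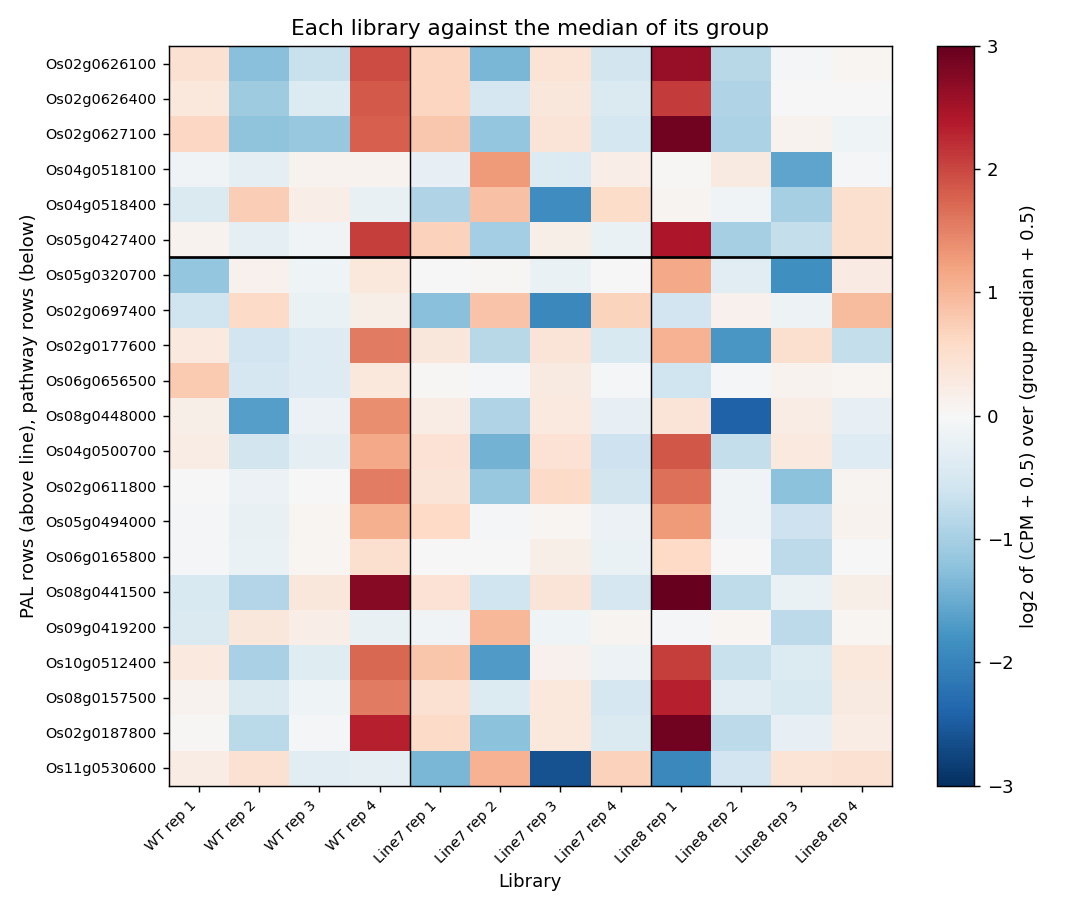
Log2 of each library's CPM + 0.5 over the median of its group plus 0.5 (colour), for the 6 PAL rows above the line and the 15 tested pathway rows below it, with libraries on the x axis. WT replicate 4 and Line8 replicate 1 are each at least 2-fold above the median in the same 4 PAL rows and in 9 pathway rows. The 9 pathway rows are not all the same in these libraries.

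Among all tested rows outside the family, Os08g0157500 was nearest to the summed PAL level, with a distance of 0.162, smaller than that of any single member (0.263 for Os02g0626400). The median distance of all other rows was 1.14. Os08g0157500 was also among the 21 pathway IDs. It held 231, 158, 196 and 629 CPM in WT, 569, 308, 514 and 292 CPM in Line7 and 385, 59.6, 55.3 and 91.7 CPM in Line8. It differed from WT past the threshold in neither line (by edgeR, -1.04 on the log2 scale with SE 0.615 and adjusted p = 0.222 for Line8; 0.47 with SE 0.609 and adjusted p = 0.654 for Line7). The next nearest row was Os04g0430600, at 0.27, which the files do not pair with a name.

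**Figure D5:**
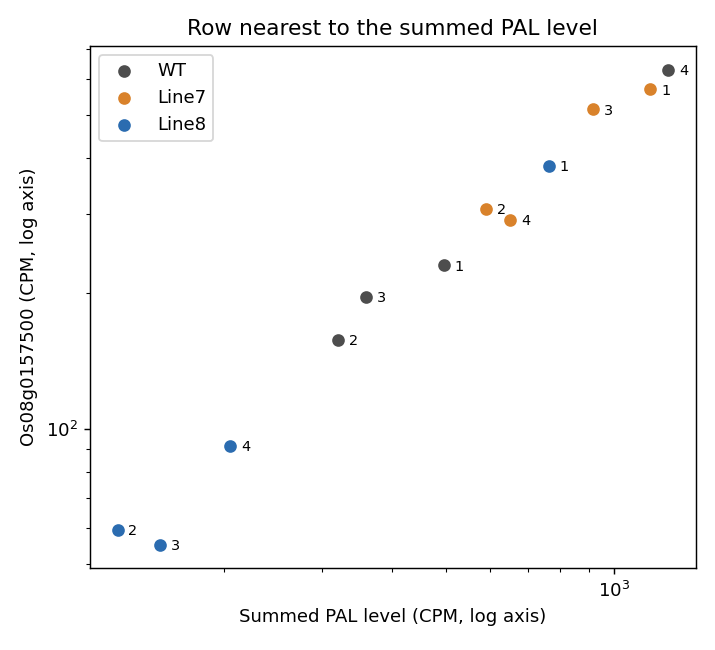
Summed PAL level (x axis) against the level of Os08g0157500 (y axis), both in CPM on log axes; points are libraries with their replicate number. WT replicate 4 is the top right library (1247 and 629 CPM), and Line8 replicates 2 to 4 lie lowest, at 129 to 206 CPM on the x axis.

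Marker levels also differed between groups and libraries. The single root ID with counts fell in Line8, where the summed root level was 4.25 to 15.5 CPM against 17.6 to 24.0 CPM in WT and 8.85 to 20.1 CPM in Line7. The leaf markers summed to 41877 to 55205 CPM in WT, 32744 to 41553 CPM in Line7 and 20730 to 52281 CPM in Line8, and by edgeR 2 of the 6 rose in Line8 and none was called for Line7, where 1 had an unadjusted p under 0.05. For the mean of both lines 1 of the 6, Os11g0707000, fell (log2 fold change -0.66, SE 0.227, edgeR adjusted p = 0.0483), with -0.67 in Line7 and -0.66 in Line8 (unadjusted p = 0.0267 and 0.0289, adjusted p = 0.133 and 0.0842). The shares of all rows called were 27.3% in Line8, 6.97% in Line7 and 24.3% for both lines. Secondary-wall markers had at most 14 counts per library. In WT replicate 4 and Line8 replicate 1 the leaf markers summed to 41877 and 33589 CPM and the secondary-wall markers had 5 and 0 counts. The summed root level there was 24.0 and 4.25 CPM, the highest and the lowest of the 12 libraries. The part of these levels in the PAL differences was not tested.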

How the data were processed

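Leaf RNA of 12 samples was extracted with Trizol, per the labels' protocols. The deposited table holds raw whole-number counts for each gene. The sources used here name no aligner, counter, genome build or strand setting. Samples were grouped by title. Members and lists were chosen with earlier results of these data known. The named rows were the 9 listed IDs, the target, rows between neighbouring members and the 2 rows nearest to the summed PAL level. RefSeq (ASM3414082v1) matched 1 ID of the table and 0 members.

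Rows were kept by filterByExpr on group (20217). Libraries were scaled by TMM, and a robust quasi-likelihood model (edgeR 4.0.16, R 4.3.3) was fitted to all 12 libraries. P-values were adjusted by Benjamini-Hochberg over all tested rows, with a threshold of 0.05. CPM are counts over the scaled total of the kept rows. SEs are the fold change over the root of F. Alternatives were 3 other scalings, 2 other filters, DESeq2 1.42.0, limma-voom 3.58.1, a fit of the compared libraries alone, a block for replicate number, and fits without each library. The fits were tested on simulated data. Chi-square over its degrees of freedom was at least 13.6 for any of 66 library pairs, so no library was counted as a repeat of another. The exact two-sided permutation test on the target's CPM gave p = 0.0286 for Line8 against WT, the smallest value possible with 4 libraries a group, and 0.229 for Line7 against WT.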

Additional observations from a re-analysis of the deposited data

Results flagged for a closer look

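In 24 sets of 4 libraries examined (6 PAL rows, the target and the summed PAL level in 3 groups), 5 held a library far from the other 3. The rule flags about 1 in 20 sets by chance only for independent, normally distributed values. The sets here share libraries and several rows varied together, so the 5 cannot be set against that rate. Line8 replicate 1 stood high in Os02g0626100 (241 CPM), Os02g0626400 (340 CPM), Os02g0627100 (69.4 CPM) and the summed PAL level (764 CPM), which contains them. WT replicate 4 stood high in Os05g0427400 (80.3 CPM).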

How the results depend on the processing

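Members called lower in Line8 numbered 1, and 2 with upper-quartile factors, library size only, DESeq2, limma-voom, a fit of the compared libraries alone or the replicate block. Of all rows, 11.8% were called lower in Line8 in the main fit and 10.4 to 15.6% under those settings. Leaving out single libraries gave 0 to 2 members, against 5.4 to 14.3% of all rows called lower. For Line7 it gave 0 to 1, against 0.0146 to 10.2% of all rows called lower. For the mean of both lines it gave 0 to 2, against 3.09 to 16.6%, and the replicate block gave 1, against 8.95%. DESeq2 called 1 between the lines, where it called 2.34% of all rows. With library size only, Os04g0518400 in Line7 turned to 0.018.

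Of all rows, 1409 were called in Line7, and 3024 by DESeq2, 22 by limma-voom, 587 in a fit of the compared libraries alone and 475 with the replicate block (7 to 5156 without single libraries). Single libraries moved the 5524 of Line8 from 3443 to 6494 and the 4912 of both lines from 2309 to 7174. Between the lines 5 were called, and 3 with the stricter filter, 474 by DESeq2, 2 by limma-voom, 1 in a fit of the compared libraries alone and 0 with the replicate block (0 to 7 without single libraries).

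Signs turned when single libraries were left out, all in values that miss the threshold. In Line7 the ranges were -0.11 to 1.10 for Os02g0626400 and -0.49 to 0.27 for Os04g0518400. In Line8 they were -1.84 to 0.46 for Os02g0626100, -2.04 to 0.43 for Os02g0627100 and -1.89 to 0.27 for Os05g0427400. For both lines they were -0.46 to 1.16 for Os02g0626100, -0.88 to 0.46 for Os02g0626400, -0.26 to 1.39 for Os02g0627100 and -0.35 to 1.17 for Os05g0427400. Between the lines Os04g0518100 ran from -0.68 to 0.028, the latter without Line7 replicate 2. The cause was not tested.

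Replicate numbers were not treated as pairs: correlations of same-numbered deviations ran from -0.387 to 0.332, with 4 of 12 over 0.1, and libraries correlated best with their own number in 8 of 24 combinations. With upper-quartile factors the median change over all rows in Line8 was -0.18, against -0.07 with TMM.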
